A study of Mus musculus with 12 samples.

Results

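The red-cell microRNAs miR-451, miR-144 and miR-486 were followed in blood and colon of mice with and without experimental colitis. They were taken by name as 7 rows of the deposited count table, mmu-mir-451a, mmu-mir-144-3p, mmu-mir-144-5p, mmu-mir-486a-5p, mmu-mir-486b-5p, mmu-mir-486a-3p and mmu-mir-486b-3p. All 7 were among its 1978 rows. Small RNA of whole blood and of whole colon had been sequenced from the same 6 C57BL/6 male mice, 8 weeks old, which gave 12 libraries. In each tissue, 3 mice had drunk water with 1.5% (wt/vol) dextran sulfate sodium (DSS), which damages the epithelium of the colon, for 7 days and were sacrificed on day 8, and 3 control mice had drunk the same water without DSS over the same time. The study chose these mice by their disease activity index. Blood RNA was isolated with a blood kit and colon RNA with a tissue kit, so tissue and kit cannot be told apart.

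The sources conflict about the mice. Mice 1, 7 and 9 were taken as DSS mice and mice 2, 4 and 8 as control mice, which is how the plots of the libraries in the article name them. The disease state label puts mice 1, 2 and 4 under colitis but 7, 8 and 9 under control, and values under that grouping are given beside the DSS results. Between DSS and control edgeR called 0 miRNAs in blood and 55 of 542 in colon with the first grouping, and 0 and 0 with that of the label, while DESeq2, run with the first grouping alone, called 10 and 74. The source field and the tissue field name opposite tissues, and the tissue was taken from the separate deposited tables of blood and colon. All 9 miRNAs of intestinal epithelium and all 3 of smooth muscle on the marker lists were lower in blood than in colon in both groups, with edgeR's quasi-likelihood test, which called 50.7% of all 680 miRNAs lower in blood in the control mice and 47.4% in the DSS mice. Blood libraries held 21127134 to 32944792 counts as deposited and colon libraries 15060553 to 20106226. Some rows share a mature sequence. With each sequence counted once the totals were 12906328 to 19939584 in blood and 15006941 to 19988962 in colon.

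miR-451a and miR-144 come from neighbouring hairpins of 1 locus that is switched on as red cells mature. miR-451a is unusual in that its hairpin is too short for Dicer and is cut by Argonaute 2 instead, so its mature strand runs into the loop. miR-486 lies within the gene of red-cell ankyrin, Ank1, and is abundant in red cells and also in muscle. The names ending in 5p and 3p are the 2 arms of a hairpin, and usually 1 of them is kept in Argonaute and the other is lost.

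The mature sequences are printed because the counts were assigned by them and because several rows share most of their letters. Capitals mark the seed, bases 2 to 8, by which a miRNA finds its targets.
mmu-mir-451a: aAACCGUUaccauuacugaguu
mmu-mir-144-3p: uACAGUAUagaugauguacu
mmu-mir-144-5p: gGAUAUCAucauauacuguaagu
mmu-mir-486a-5p and mmu-mir-486b-5p: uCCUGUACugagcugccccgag
mmu-mir-486a-3p: cGGGGCAGcucaguacaggau
mmu-mir-486b-3p: cGGGGCAGcucaguacagga

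The 7 rows hold 6 distinct sequences, since mmu-mir-486a-5p and mmu-mir-486b-5p are identical over all 22 nt. Of the members, 3 matched an entry in the RefSeq table (GRCm38.p6), and the 4 miR-486 sequences were read from the deposited tables. mmu-mir-486a-3p and mmu-mir-486b-3p share 20 nt and differ by 1 terminal base. These 20 nt are also the reverse complement of a stretch of the 5p arm, so the hairpin arms of miR-486 pair without a mismatch there, while the longest such stretch between the miR-144 arms is 9 nt. Every blood library holds more counts than the study reports as reads mapped to miRNAs in any sample, so reads stood under several names. The 5p rows are therefore not separate levels. Reads of the 3p rows could be split or shared between the entries, and their separate levels are uncertain to that extent. The seed of the miR-486 3p arms is shared with mir-326-5p and mir-6954-5p among the miRNAs whose sequence the deposited tables give, and the other member seeds with no such miRNA outside the members.

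In GRCm38, Mir144 lies at chr11:78073005-78073070 and Mir451a at chr11:78073170-78073241, both on the plus strand and 99 bp apart. Mir451b is annotated over the interval of Mir451a on the minus strand, and neither Mir144 nor Mir451a lies inside another gene of the annotation apart from it. The nearest protein-coding gene is Eral1 on the minus strand, 135 bp from Mir451a. Mir486 lies at chr8:23142555-23142682 on the plus strand and Mir3107, the gene of miR-486b, at chr8:23142573-23142662 on the minus strand. Both lie in an intron of Ank1 and in an intron of the antisense gene Gm15816. The hairpins of the chromosome 11 locus, from RefSeq, are printed with the mature strands in capitals, to show where the strands lie.
Mir144: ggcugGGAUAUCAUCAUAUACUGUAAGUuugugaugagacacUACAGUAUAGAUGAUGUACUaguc
Mir451a: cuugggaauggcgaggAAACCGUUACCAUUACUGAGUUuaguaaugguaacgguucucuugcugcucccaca

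The Mir144 hairpin of 66 nt carries its mature strands at positions 6 to 28 and 43 to 62. The Mir451a hairpin of 72 nt has a single mature strand, at positions 17 to 38. mmu-mir-451b, annotated on the opposite strand of the same interval, was close to absent, with 1 count in the blood of mouse 1, 1 count in the colon of mouse 1 and 0 in the other 10 libraries.

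Blood libraries consisted mostly of the members. With each mature sequence counted once, with the highest count kept in each library where rows share a sequence, the members held 62.5%, 72.5% and 62.6% of the count in the blood of control mice 2, 4 and 8, and 63.4%, 69.3% and 67.6% in that of DSS mice 1, 7 and 9. In colon the same shares were 0.173%, 0.230% and 0.162% in the control mice and 0.165%, 0.281% and 0.290% in the DSS mice. The mean was 66.3% ± 4.15 in blood and 0.217% ± 0.0586 in colon (SD, n = 6), and the tissues did not overlap. With the rows as deposited, where miR-486-5p has a count under both names, the members held 76.3% to 83.9% in blood and 0.285% to 0.503% in colon.

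Nearly all of this was the miR-486 5p arm. The miR-486-5p sequence alone, by the higher of its 2 rows, held 61.0%, 71.0% and 60.1% of the blood libraries of control mice 2, 4 and 8, and 61.9%, 67.7% and 66.2% of those of DSS mice 1, 7 and 9. It was the first-ranked sequence in all 6 blood libraries. The highest non-member held 4.01% to 6.33%, and was let-7i-5p in the 3 control mice and mir-25-3p in the 3 DSS mice. In colon, where mir-143-3p led with 25.9% to 36.0%, miR-486-5p held 0.129% to 0.226% and ranked 41 to 51.

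mmu-mir-451a was far below miR-486-5p in blood. It held 1.41%, 1.50% and 2.43% in control mice 2, 4 and 8 and 1.25%, 1.54% and 1.31% in DSS mice 1, 7 and 9, at ranks 6 to 9. In colon it held 0.0220% to 0.0632%, at ranks 80 to 100. The lowest blood library stood above the highest colon library.

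The arms of miR-144 were the members that differed most from mouse to mouse. mmu-mir-144-5p had 9514, 1108 and 4404 counts in the blood of control mice 2, 4 and 8, and 31066, 1395 and 1866 in that of DSS mice 1, 7 and 9. mmu-mir-144-3p had 240, 43 and 169 counts in the control mice and 697, 63 and 36 in the DSS mice. Mouse 1, a DSS mouse, and mouse 2, a control mouse, were the highest for both arms.
In colon, mmu-mir-144-5p had 44, 91 and 27 counts in control mice 2, 4 and 8 and 56, 53 and 82 in DSS mice 1, 7 and 9. mmu-mir-144-3p had 8, 3 and 3 counts in the control mice and 13, 3 and 3 in the DSS mice. At 3 counts the exact Poisson interval (95%) is 0.619 to 8.77 counts, which covers counting error only, so colon levels of mmu-mir-144-3p are poorly set.

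The 3p arms of miR-486 were minor in blood. mmu-mir-486a-3p held 0.0402%, 0.0526% and 0.0666% of the blood libraries of control mice 2, 4 and 8 and 0.0888%, 0.0577% and 0.0346% of those of DSS mice 1, 7 and 9. It held 0.00168% to 0.00305% in colon. mmu-mir-486b-3p, shorter by the terminal base, had 444 to 1308 counts in blood and 36 to 48 in colon. The count of mmu-mir-486a-3p was 8.60 to 12.8 times that of mmu-mir-486b-3p in blood and 7.0 to 11.5 times in colon. The identical 5p rows were not equal, as mmu-mir-486b-5p stood 3.83% to 4.32% above mmu-mir-486a-5p in 5 blood libraries, 0.0303% above it in the blood of control mouse 4, and 2.06% to 4.16% above it in colon.

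**Figure D1:**
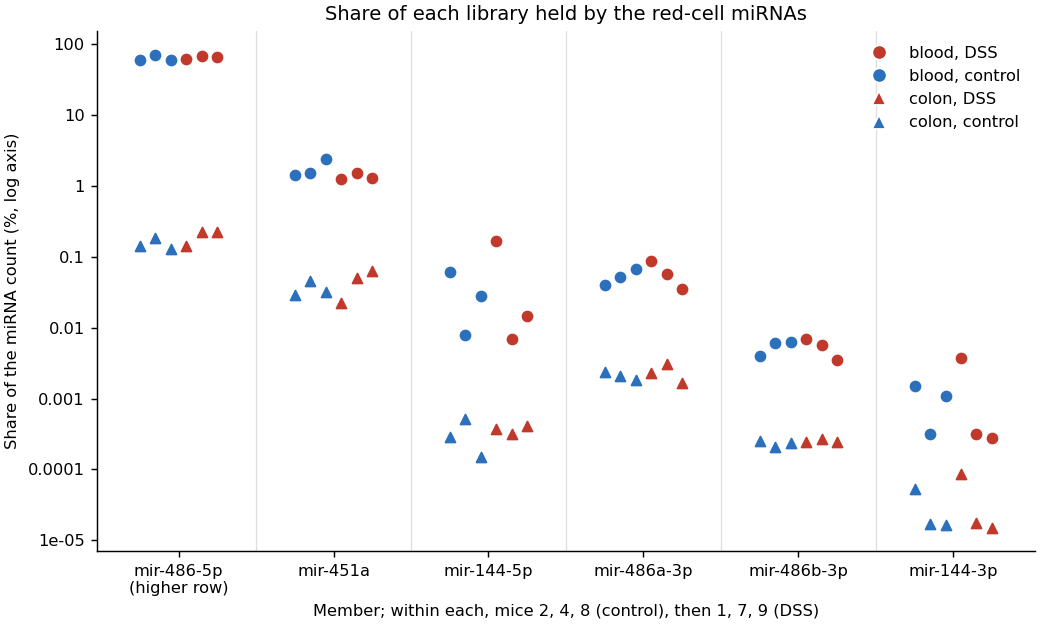
Share of the miRNA count (percent, log axis, each mature sequence counted once) of each distinct member sequence, 1 point per library, circles for blood and triangles for colon, red for DSS and blue for control mice. miR-486-5p, by the higher of its 2 rows, lies between 60.1% and 71.0% in blood and between 0.129% and 0.226% in colon, and the miR-144 arms are the most scattered members in blood.

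Levels were then compared between the tissues with edgeR's quasi-likelihood test over all 12 libraries, scaled by TMM (trimmed mean of M values) factors. A miRNA was called when its p, adjusted over all miRNAs tested (Benjamini-Hochberg), did not exceed 0.05 and its fold change exceeded 1.5. All 7 members were higher in blood than in colon in the control mice and all 7 in the DSS mice, where 35.7% and 36% of the 680 miRNAs tested were called higher in blood. The median log2 fold change of all miRNAs tested was -1.14 in the control mice and -0.70 in the DSS mice, and moved to -1.70 and -1.58 when libraries were scaled by total count alone. The members' own medians were 5.54 and 5.34. In whole tissue, fewer cells of a type and less RNA per cell cannot be told apart, and the amount of blood left in the colon was not measured.

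miR-486-5p differed most. In the control mice mmu-mir-486a-5p was higher in blood by a log2 fold change of 8.66 (SE 0.36, edgeR adjusted p = 1.07e-10), second of all 680 miRNAs, and mmu-mir-486b-5p, the same sequence, by 8.64. The values in the DSS mice were 8.59 and 8.60. mmu-mir-144-5p followed with 6.55 (SE 1.12) in the control and 7.57 (SE 1.16) in the DSS mice. mmu-mir-451a gave 5.54 (SE 0.40) and 5.19 (SE 0.40), and mmu-mir-144-3p 4.97 (SE 1.10) and 5.34 (SE 1.08). The values of mmu-mir-144-3p rest on 3 to 13 counts in colon and on a filter that it passed through blood alone.
The 3p arms of miR-486 were the lowest of the members, with 4.58 and 4.88 for mmu-mir-486a-3p and 4.44 and 4.66 for mmu-mir-486b-3p, at SEs from 0.40 to 0.45. The edgeR adjusted p of the members was between 1.07e-10 and 6.11e-04 in the control mice and between 1.15e-10 and 2.88e-04 in the DSS mice. In the control mice, neighbours in this order from mmu-mir-144-5p downwards differed by less than the larger of their standard errors, and in the DSS mice the same held from mmu-mir-144-3p downwards.

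Taken mouse by mouse on the TMM-scaled CPM (the count scaled to the effective library size), the colon level of mmu-mir-486a-5p was 0.243%, 0.248% and 0.250% of the blood level in control mice 2, 4 and 8 and 0.239%, 0.251% and 0.294% in DSS mice 1, 7 and 9. That range is narrow in comparison with the other members. For mmu-mir-451a the colon level was 2.17%, 3.03% and 1.52% of blood in the control mice and 1.81%, 2.49% and 4.20% in the DSS mice. mmu-mir-144-3p gave a median of 3.91% over the 6 mice, mmu-mir-486a-3p 3.95% and mmu-mir-486b-3p 4.01%. mmu-mir-144-5p had the widest range, from 0.232% in mouse 1 to 6.48% in mouse 4, around a median of 1.54%. The medians of these 4 were higher with total count alone, at 7.10%, 7.28%, 6.84% and 2.72% in the same order. With total count alone in place of TMM, the range of mmu-mir-486a-5p was 0.336% to 0.553% and that of mmu-mir-451a 2.03% to 7.88%. With shares of the count, each sequence once, it was 0.214% to 0.339% for miR-486-5p, there by the higher of its rows and not by mmu-mir-486a-5p, and 1.29% to 4.84% for mmu-mir-451a.

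**Figure D2:**
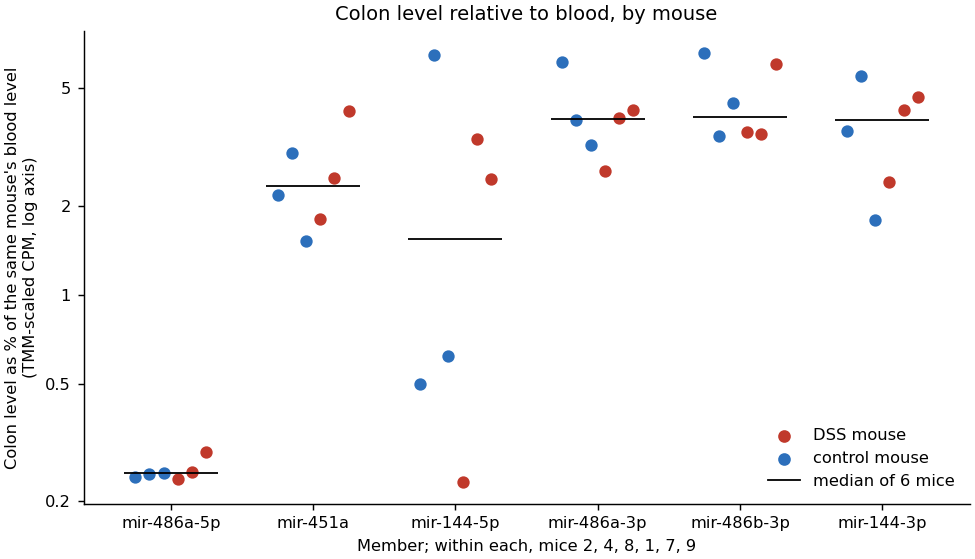
Colon level of each distinct member sequence as a percent of the blood level of the same mouse (TMM-scaled CPM, log axis), 1 point per mouse, red for DSS and blue for control mice, with a line at the median of 6 mice. mmu-mir-486a-5p sits between 0.239% and 0.294% in all 6 mice, while mmu-mir-144-5p runs from 0.232% to 6.48%.

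Ratios of 2 members within a library need no scaling between libraries, and 4 of them were tested between the tissues with two-sided exact permutation tests, 6 blood against 6 colon libraries, and p-values adjusted over the 4 (Benjamini-Hochberg). The smallest p this design allows is 0.00216. miR-486-5p and miR-451a stood in different proportions in the tissues. There were 41.6, 47.2 and 23.8 counts of mmu-mir-486a-5p per count of mmu-mir-451a in the blood of control mice 2, 4 and 8 and 47.4, 42.4 and 48.8 in that of DSS mice 1, 7 and 9, against 4.65, 3.87 and 3.93 and 6.27, 4.28 and 3.42 in their colons. The ratio was 9.44-fold higher in blood (log2 difference 3.24, exact permutation p = 0.00216, adjusted 0.00433), in 6 of 6 mice. That test sets aside that each mouse gave both tissues. With the mouse as replicate block the exact sign-flip p was 0.0312 (adjusted 0.0417).

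The arms of miR-486 also stood in different proportions. Per 1000 counts of mmu-mir-486a-5p there were 0.685, 0.741 and 1.15 counts of mmu-mir-486a-3p in the blood of control mice 2, 4 and 8 and 1.50, 0.884 and 0.544 in that of DSS mice 1, 7 and 9. In colon there were 17.3, 11.7 and 14.8 in the control mice and 16.5, 14.0 and 7.77 in the DSS mice. The 3p share was 15.3-fold lower in blood (log2 difference -3.94, exact permutation p = 0.00216, adjusted 0.00433), in 6 of 6 mice. The exact sign-flip p with the mouse as replicate block was 0.0312 (adjusted 0.0417).

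For miR-144 the 5p arm outnumbered the 3p arm in every library. There were 39.6, 25.8 and 26.1 counts of mmu-mir-144-5p per count of mmu-mir-144-3p in the blood of control mice 2, 4 and 8 and 44.6, 22.1 and 51.8 in that of DSS mice 1, 7 and 9. In colon the ratios were 5.50, 30.3 and 9.0 in the control mice and 4.31, 17.7 and 27.3 in the DSS mice, resting on 3 to 13 counts of the 3p arm. The ratio was 3.05-fold higher in blood (exact permutation p = 0.0152, adjusted 0.0202), in 5 of 6 mice, the exception being mouse 4. With the mouse as replicate block the exact sign-flip p was 0.0625, and without mouse 1 or mouse 2 the exact permutation p was 0.0556, so the call did not hold under these.

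mmu-mir-144-3p was also set against mmu-mir-451a, its neighbour in the genome. Per 1000 counts of mmu-mir-451a there were 2.97 counts of mmu-mir-144-3p in the blood of mouse 1 and 3.94 in its colon, and 1.08 and 1.79 in mouse 2. In mice 4, 7, 8 and 9 there were 0.205 to 0.446 in blood and 0.237 to 0.528 in colon, each colon value resting on 3 counts. Mice 1 and 2 were the highest in both tissues. The tissues did not differ beyond the spread between mice when the pairing was set aside (log2 difference -0.69, exact permutation p = 0.448). With the mouse as replicate block, colon was the higher in 6 of 6 mice with an exact sign-flip p of 0.0312, the smallest that 6 mice allow (adjusted 0.0417). Per count of mmu-mir-451a, the exact Poisson interval (95%) of the colon count covered the same mouse's blood value in 6 of 6 mice. Each single difference thus lay within counting error. With no pseudocount the log2 difference was -0.53.

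For mmu-mir-144-5p per 1000 counts of mmu-mir-451a, the blood and colon values were 132 and 17.0 in mouse 1, 42.7 and 9.82 in mouse 2, 5.33 and 11.4 in mouse 4, 4.55 and 6.14 in mouse 7, 11.6 and 4.75 in mouse 8, and 11.1 and 6.49 in mouse 9. Blood was the higher in mice 1, 2, 8 and 9 and colon in mice 4 and 7. This ratio was not tested.

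**Figure D3:**
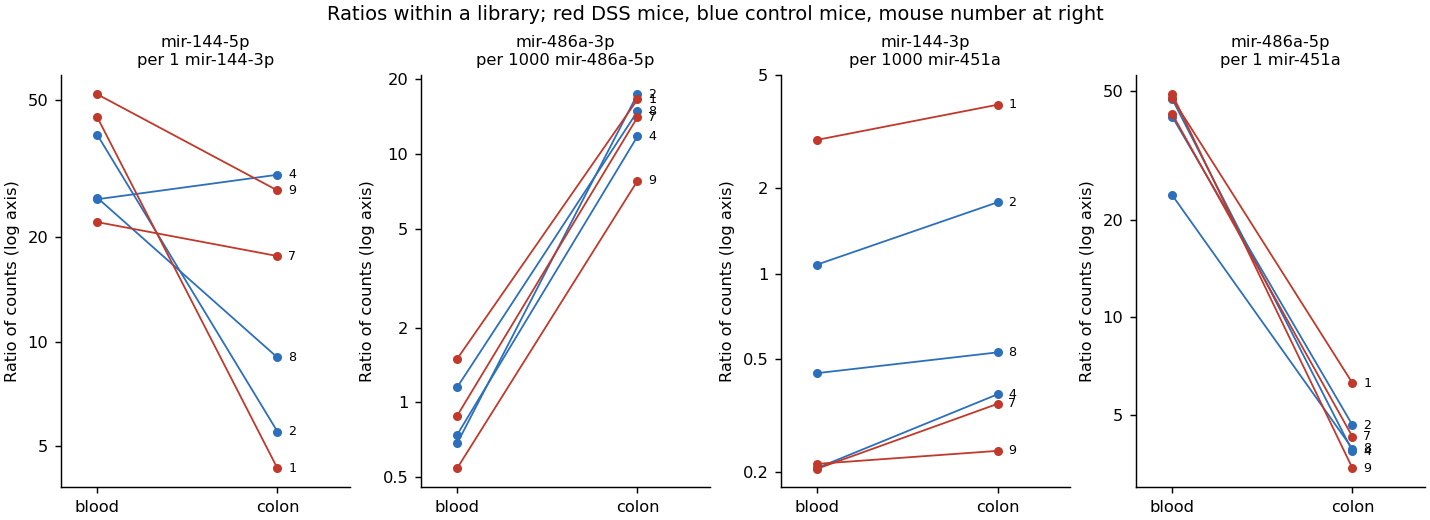
Ratio of the counts of 2 members within a library (log axis) in the blood and colon of each mouse, 1 line per mouse, red for DSS and blue for control mice. The lines for mmu-mir-486a-5p per mmu-mir-451a fall from 23.8 to 48.8 in blood to 3.42 to 6.27 in colon, and those for mmu-mir-144-3p per 1000 mmu-mir-451a run from 0.205 to 2.97 in blood and from 0.237 to 3.94 in colon.

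DSS was compared with control within each tissue, to ask whether the red-cell miRNAs moved with colitis in blood or in colon. In blood 0% of the 484 miRNAs tested were called by edgeR, with 56 at an unadjusted p under 0.05, and DESeq2 called 10, or 3.48% of the 287 to which it gave an adjusted p. Of the 7 members 0 were called by either tool and 0 had an unadjusted p under 0.05 with edgeR. Their log2 fold changes were between -0.56 and 0.51, with a median of -0.23 beside -0.05 for all miRNAs tested.

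mmu-mir-451a was the member whose groups lay apart. Its TMM-scaled level in blood was 10006, 11976 and 12844 CPM in control mice 2, 4 and 8 and 5916, 9890 and 7776 CPM in DSS mice 1, 7 and 9. All 3 DSS libraries were below all 3 control libraries, as happened in either direction for 17.4% of the 484 miRNAs. The log2 fold change was -0.56 (SE 0.25), and it did not pass the test (edgeR adjusted p = 0.42). The groups overlapped when libraries were scaled by total count alone, by the total of each sequence once, or by the deposited size factors.

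The miR-144 arms spanned the widest range. mmu-mir-144-5p had 427, 63.8 and 149 CPM in control mice 2, 4 and 8 and 782, 44.99 and 86.1 CPM in DSS mice 1, 7 and 9, a 17.4-fold range over 6 mice. mmu-mir-144-3p had 10.8, 2.48 and 5.73 CPM in the control mice and 17.5, 2.03 and 1.66 CPM in the DSS mice. The DSS group held both the highest and the lowest library of each arm. Their log2 fold changes were 0.51 (SE 1.03) and 0.17 (SE 0.89), with edgeR adjusted p of 0.92 and 0.96. Without mouse 1 they turned to -1.64 and -1.71, with edgeR adjusted p of 0.45 and 0.27. The spread within groups, as the pooled SD of log2(CPM + 1), was 1.80 for mmu-mir-144-5p and 1.27 for mmu-mir-144-3p, second and sixth widest of the 484 miRNAs, whose median was 0.248. That of mmu-mir-451a was 0.293, at rank 194.

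The miR-486 rows overlapped between the groups in blood. mmu-mir-486a-5p gave a log2 fold change of -0.25 (SE 0.31), mmu-mir-486a-3p -0.08 (SE 0.30) and mmu-mir-486b-3p -0.29 (SE 0.31), with edgeR adjusted p between 0.77 and 0.94. Under the grouping of the disease state label 0 of the 7 members were called in blood, with log2 fold changes from -0.13 for mmu-mir-451a to 2.18 (SE 0.83, edgeR adjusted p = 0.95) for mmu-mir-144-5p. Mice 1 and 2, which had the highest miR-144, both come under colitis by that label.

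In colon 10.1% of the 542 miRNAs tested were called, and of the 6 members that passed the filter on low counts 0 were called, with 0 at an unadjusted p under 0.05. DESeq2, which called 13.8% of 536 miRNAs, called 0 of the 7 members. mmu-mir-144-3p did not pass the filter. The members' log2 fold changes were between -0.12 and 0.17, around a median of 0.05 beside 0.04 for all miRNAs tested. mmu-mir-451a had 299, 482 and 356 CPM in the colon of control mice 2, 4 and 8 and 236, 486.3 and 489 CPM in that of DSS mice 1, 7 and 9, a log2 fold change of 0.09 (SE 0.31, edgeR adjusted p = 0.85). mmu-mir-486a-5p had 1388, 1863 and 1399 CPM in the control mice and 1480, 2082 and 1673 CPM in the DSS mice, a log2 fold change of 0.17 (SE 0.18, edgeR adjusted p = 0.54). Of the members tested 0 had groups without overlap, where 38.6% of the 542 miRNAs did. Under the grouping of the disease state label 0 of 6 members were called, with log2 fold changes from -0.39 to 0.66.

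**Figure D4:**
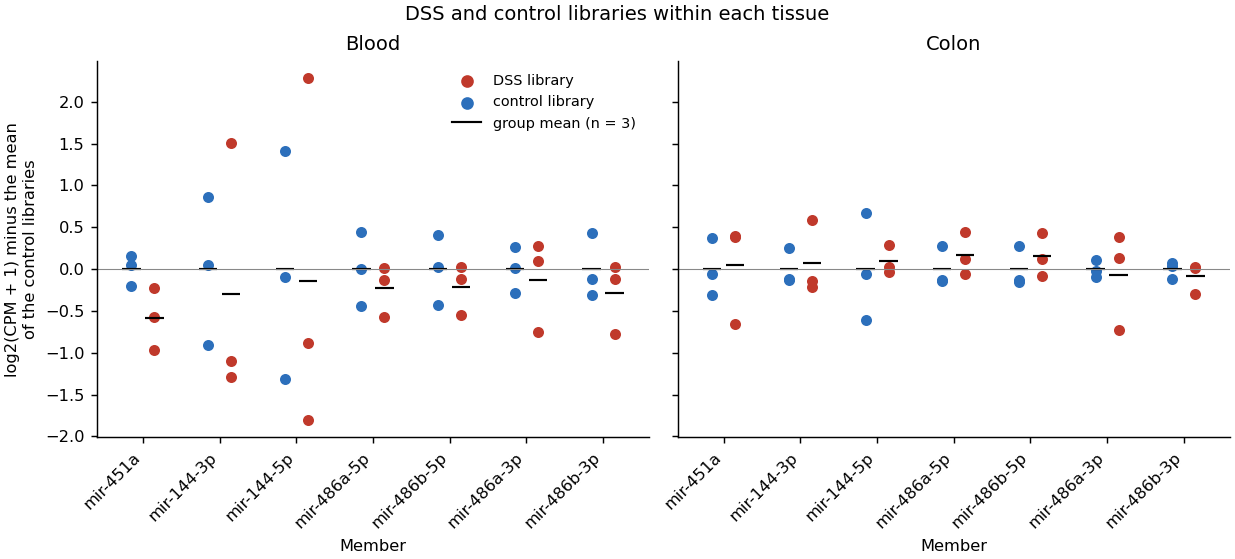
Levels of the 7 members as log2(CPM + 1) minus the mean of the control libraries, in blood and in colon, 1 point per library, red for DSS and blue for control, with lines at group means (n = 3). In blood the DSS points of mmu-mir-451a lie below its control points, the points of the miR-144 arms are spread widest, and in colon the groups overlap for every member.

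The summed share of the members was 66.8% ± 3.06 in DSS and 65.9% ± 5.76 in control blood, and 0.245% ± 0.0694 in DSS and 0.188% ± 0.0365 in control colon (SD, n = 3), with overlap in both tissues. The effect of DSS was also compared between the tissues, where edgeR's interaction test called 0% of 680 miRNAs and 0 of the 7 members, with 94 miRNAs and 0 members at an unadjusted p under 0.05. DESeq2 called 37, or 8.92% of the 415 miRNAs to which it gave an adjusted p, and 0 members. The 4 ratios of members overlapped between DSS and control mice in both tissues, with a smallest exact permutation p of 0.2 in a design of 3 against 3 that cannot go below 0.1.

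The other miRNAs known to be abundant in red cells or their precursors were read beside the members. Of 15, 14 were higher and 1 lower in blood than in colon in the control mice, and 13 higher and 1 lower in the DSS mice, where edgeR called 35.7% and 36% of all 680 miRNAs higher and 50.7% and 47.4% lower, with medians of 2.39 and 3.02 on the log2 scale beside 5.54 and 5.34 for the members. The most abundant in blood were mir-25-3p at 25426 CPM and mir-92a-3p at 21353 CPM, which belong to 1 seed family and whose log2 fold changes of blood against colon in the control mice were 4.70 and 4.39. mir-191-5p gave 1.30, and let-7b-5p, a let-7 miRNA found in most tissues, was the lower one with -2.13. Between DSS and control edgeR called 0 of the 15 in blood, where DESeq2, with 3.48% of all miRNAs called, called 1, mir-16-5p, as lower in DSS mice (edgeR log2 fold change -1.18, SE 0.29, adjusted p = 0.24). With no filter on low counts, and 2.23% of all miRNAs called, edgeR called mir-16-5p as lower too. In colon edgeR called 1, let-7b-5p, as lower (log2 fold change -0.70, adjusted p = 0.049), where 10.1% of all miRNAs were called, and DESeq2, with 13.8% called, called mir-363-3p as higher beside it. The edgeR call of let-7b-5p was lost with RLE factors, with total count alone, with all 12 libraries in 1 fit, with groups by the disease state label and without mouse 2, 4, 7, 8 or 9. edgeR also called mir-363-3p as higher with no filter on low counts and without mouse 1, where it called 5.85% and 7.73% of all miRNAs.

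Markers of other cells were called in the colon, where the members did not pass the test. In DSS colon, where 10.1% of all miRNAs were called, edgeR called 2 of 4 myeloid miRNAs higher and 4 of 9 epithelial miRNAs lower, and DESeq2, which called 13.8% of 536 miRNAs, called 3 and 7 of them. With RLE factors edgeR called 1 of each list. With TMM factors 0 of 6 lymphocyte, 0 of 3 smooth muscle and 0 of 2 platelet and endothelial miRNAs were called. Total count alone, with 8.67% of all miRNAs called, called 1 of the 2 platelet and endothelial miRNAs higher. Without mouse 1, with 7.73% called, 1 of the 6 lymphocyte miRNAs was called higher. All of the myeloid and epithelial edgeR calls with TMM factors were lost under the grouping of the disease state label. They were also lost without mouse 2, 4, 7 or 8 and with all 12 libraries in 1 fit, and 2 myeloid and 1 epithelial were called without mouse 9. The calls rose to 3 of 4 myeloid and 8 of 9 epithelial miRNAs without mouse 1, and to 4 and 8 with no filter on low counts. Their part in the members' colon levels was not tested. In blood edgeR called 0 of the miRNAs on these lists between DSS and control, and DESeq2 called mir-223-3p of the myeloid list as higher and mir-126a-3p and mir-215-5p, of the platelet and endothelial and the epithelial lists, as lower, beside its 3.48% over all miRNAs. With no filter on low counts, where it called 2.23% of all miRNAs, edgeR also called mir-223-3p as higher and mir-126a-3p as lower. The other myeloid miRNAs did not share the direction of mir-223-3p throughout. In blood with edgeR, mir-223-5p gave -0.80 and mir-142a-3p -0.58 on the log2 scale, at mean levels of 4.56 and 14.6 CPM. mir-142a-5p, the most abundant of the list there at 4835 CPM, gave 0.22. None of these was called, and the list's median was -0.18.

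In blood the miRNAs whose pattern over the 6 libraries lay nearest to that of mmu-mir-451a were mir-5620-5p, mir-330-5p, mir-1981-5p, mir-17-3p and mir-375-3p. Likeness was measured as the root mean square distance of log2(CPM + 1), centred on each miRNA's mean, and was 0.129 to 0.153 for these, with a median of 0.429 over all non-members. The members were farther off, from 0.353 for mmu-mir-486b-5p to 1.70 for mmu-mir-144-5p. In colon the nearest were mir-1271-5p, mir-3970, mir-15b-3p, mir-15a-5p and mir-3473d, at 0.138 to 0.222 beside a median of 0.485. mmu-mir-486b-5p was the nearest member there, at 0.266. These distances are descriptions over libraries that share their depth and scaling, and mir-5620-5p and mir-3473d had mean levels of only 1.66 and 0.781 CPM.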

How the data were processed

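The authors trimmed and collapsed the small RNA reads, counted them with miRDeep2 against mature miRNAs of the mouse (miRBase 22), and deposited the counts, without normalization, in 1 table of 12 libraries. 25 rows share 11 mature sequences, and the reads of such a sequence can stand under several names. Beside it, each tissue has a normalized signal deposited by the authors, the count divided by a DESeq2 size factor, which was used only in an alternative. The tissues were normalized separately. No molecular identifiers are named, so intervals cover counting error only.

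Tests on counts used edgeR (4.0.16, in R 4.3.3; filterByExpr, TMM factors, glmQLFit and glmQLFTest), within each tissue for DSS against control and over 12 libraries in 4 groups for the tissues and the interaction. Standard errors were derived from the log2 fold change and the F statistic. Shares used the total of each sequence once. Ratios used log2 of counts plus 0.5. Levels are TMM-scaled CPM. Exact tests used scipy in Python (3.11.15). The fits were also run on simulated counts with known changes, and the outcome is not reported here.

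The alternatives were DESeq2 (1.42.0), RLE factors, total count alone, library sizes without the members, no filter on low counts, each sequence once, the disease state label's grouping, each mouse left out, all 12 libraries in 1 fit, limma (3.58.1) on the deposited signal as log2(value + 1), and the mouse as replicate block. Same-numbered libraries come from the same animal. Their deviations from the group means correlated at -0.30 to 0.15 by mouse over 364 miRNAs. p-values measure the spread between 3 mice a group.

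The 7 members are named in every comparison. Outside them, the miRNAs named are mir-451b, up to 4 of a list by highest mean CPM, and in each tissue the 5 nearest to mir-451a in pattern. The highest non-members of a library and those with a shared seed were named after their values were seen, as were the miRNAs named for a DESeq2 call. The members and the lists were chosen with earlier results of these data known. Sequences come from the deposited tables and RefSeq and positions from the annotation of GRCm38.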

Additional observations from a re-analysis of the deposited data

How the results depend on the processing

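All 7 members (6 with each sequence once) were called higher in blood than in colon under every alternative run in both groups of mice, and 0 members were called between DSS and control, or in the interaction, under any. The count of all miRNAs called moved more. In blood DSS against control gave 10 with DESeq2, 25 without the filter on low counts, 1 with all 12 libraries in 1 fit, and 0 to 1 with a mouse left out (1 without control mouse 2). In colon the 55 became 16 with RLE factors, 0 under the disease state label, 0 with all 12 libraries in 1 fit, and 0 to 44 with a mouse left out (0 without mouse 2, 4, 7 or 8). The interaction gave 37 with DESeq2, 8 with RLE factors, 27 without the filter, 1 with the mouse as replicate block, and 0 to 2 with a mouse left out (2 without mouse 1). The replicate block left the log2 difference of mir-144-5p to mir-144-3p at 1.61 (exact sign-flip p = 0.0625) and of mir-144-3p to mir-451a at -0.69 (exact sign-flip p = 0.0312), or 1.46 and -0.53 with no pseudocount at the same p-values, an alternative chosen after seeing the data, and changed no other call of a member or ratio. The first of these was 1.25 to 1.94 with a mouse left out. The sign of the members' DSS fold changes turned under at least 1 alternative for every member tested except mir-451a in blood, which was negative under all, from -0.72 to -0.34 with a mouse left out and at -0.13 under the disease state label. In colon mir-486a-5p and mir-486b-5p turned only under that label. In blood, on the log2 scale, limma gave -0.40 for mir-144-3p and -0.090 for mir-144-5p, total count alone gave 0.0060 for mir-486a-5p, 0.028 for mir-486b-5p and 0.19 for mir-486a-3p, all 12 libraries in 1 fit gave 0.060, 0.084, 0.27 and, for mir-486b-3p, 0.060, and the disease state label gave 0.19, 0.17, 0.27 and 0.29 for the same rows. With a mouse left out the ranges in blood were -1.71 to 0.82 for mir-144-3p, -1.64 to 1.55 for mir-144-5p, -0.24 to 0.21 for mir-486a-3p, -0.39 to 0.059 for mir-486a-5p, -0.40 to 0.023 for mir-486b-3p and -0.36 to 0.061 for mir-486b-5p. In colon mir-144-5p was -0.068 with DESeq2, -0.059 with RLE factors, -0.0012 with library sizes without the members, -0.0086 without the filter and -0.043 with all 12 libraries in 1 fit, mir-451a was -0.025 with limma, total count alone gave 0.16 for mir-486a-3p and 0.084 for mir-486b-3p, and each sequence once gave 0.0056 for mir-486a-3p. The disease state label gave -0.39 for mir-451a, -0.12 for mir-486a-5p, -0.13 for mir-486b-5p, 0.16 for mir-486a-3p and 0.069 for mir-486b-3p. With a mouse left out the ranges in colon were -0.33 to 0.53 for mir-144-5p, -0.080 to 0.36 for mir-451a, -0.25 to 0.27 for mir-486a-3p and -0.21 to 0.027 for mir-486b-3p. The members' summed share, DSS minus control, was 0.889 percentage points in blood, -0.388 under the disease state label and -0.809 to 4.21 with a mouse left out, and in colon 0.0569, or -0.0547 under that label. The causes were not tested, apart from the removal of samples where a mouse was left out. The size of change that 3 mice a group could detect was not tested, and the colon counts of mir-144-3p are low, from 3 to 13.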
